A study of Mus musculus with 4 samples.

Results

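Interferon-stimulated genes are the genes that cells switch on when an interferon binds its receptor. A list of 37 of them was followed here across the cell lineages of the mouse lung in bleomycin-induced fibrosis. The list was given by gene symbol and not chosen by level, and 35 of its genes were among the 32286 genes of the count tables. *Mx1* and *Mx2*, 2 GTPases that block viruses, were not analysed here. The lungs came from 2 wild-type (WT) and 2 *Tubb3*-/- mice of 8 to 11 weeks. The *Tubb3*-/- mice are homozygous for a Cre recombinase inserted at the start site of *Tubb3*, which encodes β-III tubulin, and the WT mice are their littermates. Every mouse had received 0.8 U/kg of bleomycin, an agent that injures the lung and causes fibrosis, 14 days earlier, and no untreated lung was compared. Each mouse gave a library of whole lung cells, depleted of red blood cells through TER-119, and a mural cell-enriched library, which had been depleted through CD45, CD31, TER-119 and EpCAM and in which MCAM+ PDGFRα- cells were mixed with MCAM- cells. In the values below the 4 mice stand in the order WT 1, WT 2, *Tubb3*-/- 1, *Tubb3*-/- 2.

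Type I interferons (interferon-α and -β) signal through IFNAR1 and IFNAR2 and the kinases JAK1 and TYK2 to a complex with STAT2 and IRF9, which binds the interferon-stimulated response element (ISRE) of target genes. Interferon-γ signals through IFNGR1 and IFNGR2 to another element (GAS) and induces IRF1, and type III interferons signal through IFNLR1 and IL10RB, chiefly in epithelia. The products of the target genes sense foreign nucleic acids, block viral translation and replication, or, as the large GTPases of the IRG and GBP families do, attack the vacuoles of intracellular pathogens. How far the injury induced these genes cannot be seen here, since no untreated lung was compared.

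Lineages were set by marker genes that are not on the list. A cell with 1 or more UMIs (unique molecular identifiers, 1 per captured RNA molecule) of *Ptprc* was counted as immune, of *Cdh5* as endothelial, of *Epcam* as epithelial, of *Msln* as mesothelial, of *Higd1b* or *Myh11* as mural and of *Pdgfra* as fibroblast, and cells that matched several were dropped. Of 30092 cells kept, 15585 (51.8%) matched 1 lineage, 13746 (45.7%) several and 761 none. The lineages held 4365 immune, 2274 endothelial, 320 epithelial, 322 mesothelial, 4518 mural and 3786 fibroblast cells, and their UMIs were summed per mouse to 24 sums of 1004521 to 21197453 UMIs. Of the mural cells, 4017 had *Myh11*, the smooth muscle myosin, without *Higd1b*, and 42 had the pericyte gene *Higd1b* alone. *Myh11* was also found outside its cells. In the mural cell-enriched pool 168 of 279 cells with 3 or more UMIs of *Ptprc* had a UMI of it, against 764 of 6434 in the whole-cell pool, and how many cells of other types entered the mural class through it was not tested. Lists of 6 markers each summed to 5283 to 5674 CPM (UMIs of a gene scaled to the total of its sum) in immune cells against at most 206 elsewhere, and were likewise highest in their own lineage for the other 5. The fibroblast list held *Pdgfra*, which set that lineage. Its other 5 genes had 9354 to 16707 CPM in fibroblasts, but also 5325 to 8505 in mesothelial cells and 3925 to 7205 in mural cells. In whole-cell libraries *Tubb3* had 1.93, 0.868, 0.262 and 0.321 CPM in the 4 mice. Each *Tubb3*-/- mouse had a higher median of UMIs per cell than each WT mouse in the immune, endothelial, mural and fibroblast lineages, for example 5591, 6200, 8109 and 7973.5 in endothelial cells.

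The promoters of 5 genes are shown, since such elements are known to link genes of different function to interferon. Each line gives the 150 bases directly before a start of transcription, 5′ to 3′ on the strand of the gene, from RefSeq on GRCm38.p6. By the gene positions used here *Irgm1* reaches to 48871683, so its window lies within the gene. *Ifit1* starts at 34640871 and *Gbp2* at 142620602, which are within their windows. Capitals mark matches to the ISRE letters (GAAA, 2 bases of any kind, GAAA) on either strand, and adjoining matches run together.
*Ifit1*, chr19:34640739-34640888, plus strand: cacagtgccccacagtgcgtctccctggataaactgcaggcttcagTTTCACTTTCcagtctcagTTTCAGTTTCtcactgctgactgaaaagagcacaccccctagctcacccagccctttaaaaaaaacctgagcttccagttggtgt
*Isg15*, chr4:156200819-156200968, minus strand: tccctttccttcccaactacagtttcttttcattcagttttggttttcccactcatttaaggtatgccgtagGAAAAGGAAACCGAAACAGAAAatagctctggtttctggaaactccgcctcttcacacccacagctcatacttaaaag
*Rsad2*, chr12:26456453-26456602, minus strand: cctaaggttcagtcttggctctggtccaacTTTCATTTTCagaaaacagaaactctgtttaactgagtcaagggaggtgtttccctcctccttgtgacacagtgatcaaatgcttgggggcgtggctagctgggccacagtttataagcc
*Gbp2*, chr3:142620513-142620662, plus strand: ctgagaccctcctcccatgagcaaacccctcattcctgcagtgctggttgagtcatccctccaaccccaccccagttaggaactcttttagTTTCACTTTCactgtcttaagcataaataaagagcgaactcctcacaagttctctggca
*Irgm1*, chr11:48871421-48871570, minus strand: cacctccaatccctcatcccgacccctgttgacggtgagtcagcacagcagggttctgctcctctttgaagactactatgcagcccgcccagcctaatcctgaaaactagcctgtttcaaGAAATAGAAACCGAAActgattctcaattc
*Ifit1* held 2 matches, 76 to 104 bases before the start, and *Isg15* held 3 that overlap, 57 to 78 bases before it. *Rsad2* had 1 match at 111 to 120 bases, *Gbp2* 1 at 50 to 59 and *Irgm1* 2 at 15 to 30 bases. Promoters of 26 of the 35 genes were matched by symbol, and 17 of them (65.4%) had an ISRE match in the 250 bases before the start, against 936 of 27025 genes (3.46%). The GAS letters TTCNNNGAA were found in 7 of 26 (26.9%), against 2197 of 27025 (8.13%). All 4 GBP promoters matched had an ISRE match, as did 3 of 4 of the IFIT genes, 3 of 4 of the IRG genes and 2 of 4 of the OAS family. A match is a description of letters and not evidence of binding. Some of the genes are neighbours on GRCm38, as the 4 IFIT genes on chromosome 19 (34550694 to 34650009) and 4 of the 5 GBP genes on chromosome 3 (142493978 to 142638008).

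By mean, endothelial cells had the highest level of these genes, and mural and epithelial cells the lowest. Summed over the 35 genes, endothelial cells had 2652, 3186, 1810 and 2582 CPM, a mean of 2558 ± 567 (SD, n = 4 mice). Mesothelial cells followed with 2026 ± 226 CPM (1702, 2156, 2202 and 2044), and were above endothelial cells in *Tubb3*-/- 1. Fibroblasts had 1491 ± 335, immune cells 1345 ± 155, epithelial cells 618 ± 233 and mural cells 617 ± 60.6 CPM (SD, n = 4 each). The 4 sums of mural cells, 647, 570, 564 and 688 CPM, lay below every sum of the immune, endothelial, mesothelial and fibroblast lineages, and so did the epithelial sums, 508, 443, 561 and 960 CPM. The epithelial sum was below the mural sum of the same mouse in 3 of 4 mice, and without the cell of each sum that held the most UMIs of *Ifit1*, *Ifit3*, *Isg15* and *Rsad2* (its top cell) the means were 526 ± 97.5 in epithelial and 597 ± 53.8 CPM in mural cells. The mean was highest in endothelial cells for 19 of the 35 genes, in mesothelial cells for 8, in immune cells for 5, in epithelial cells for 2 and in fibroblasts for 1, and in mural cells for 0. It was lowest in mural cells for 18 and in epithelial cells for 10. For 13 of the 35 genes (37.1%) all 4 endothelial sums were above every other sum, a pattern that 9.80% of the 17186 genes tested in at least 1 lineage had. The same held for 3 genes in immune cells (8.57%, against 12.1% of all genes), 2 in mesothelial cells (5.71%, against 3.69%), 1 in epithelial cells (2.86%, against 8.72%), 1 in fibroblasts (2.86%, against 3.92%) and 0 in mural cells (against 4.50%). Single cells moved some of these means, as described for *Ifit1* and *Rsad2*. Without the top cells the mean was highest in endothelial cells for 22 genes, in immune cells for 6 and in mesothelial cells for 5. In *Tubb3*-/- 1 the endothelial sum was then 1770 CPM and the mesothelial sum 1495 CPM.

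**Figure D1:**
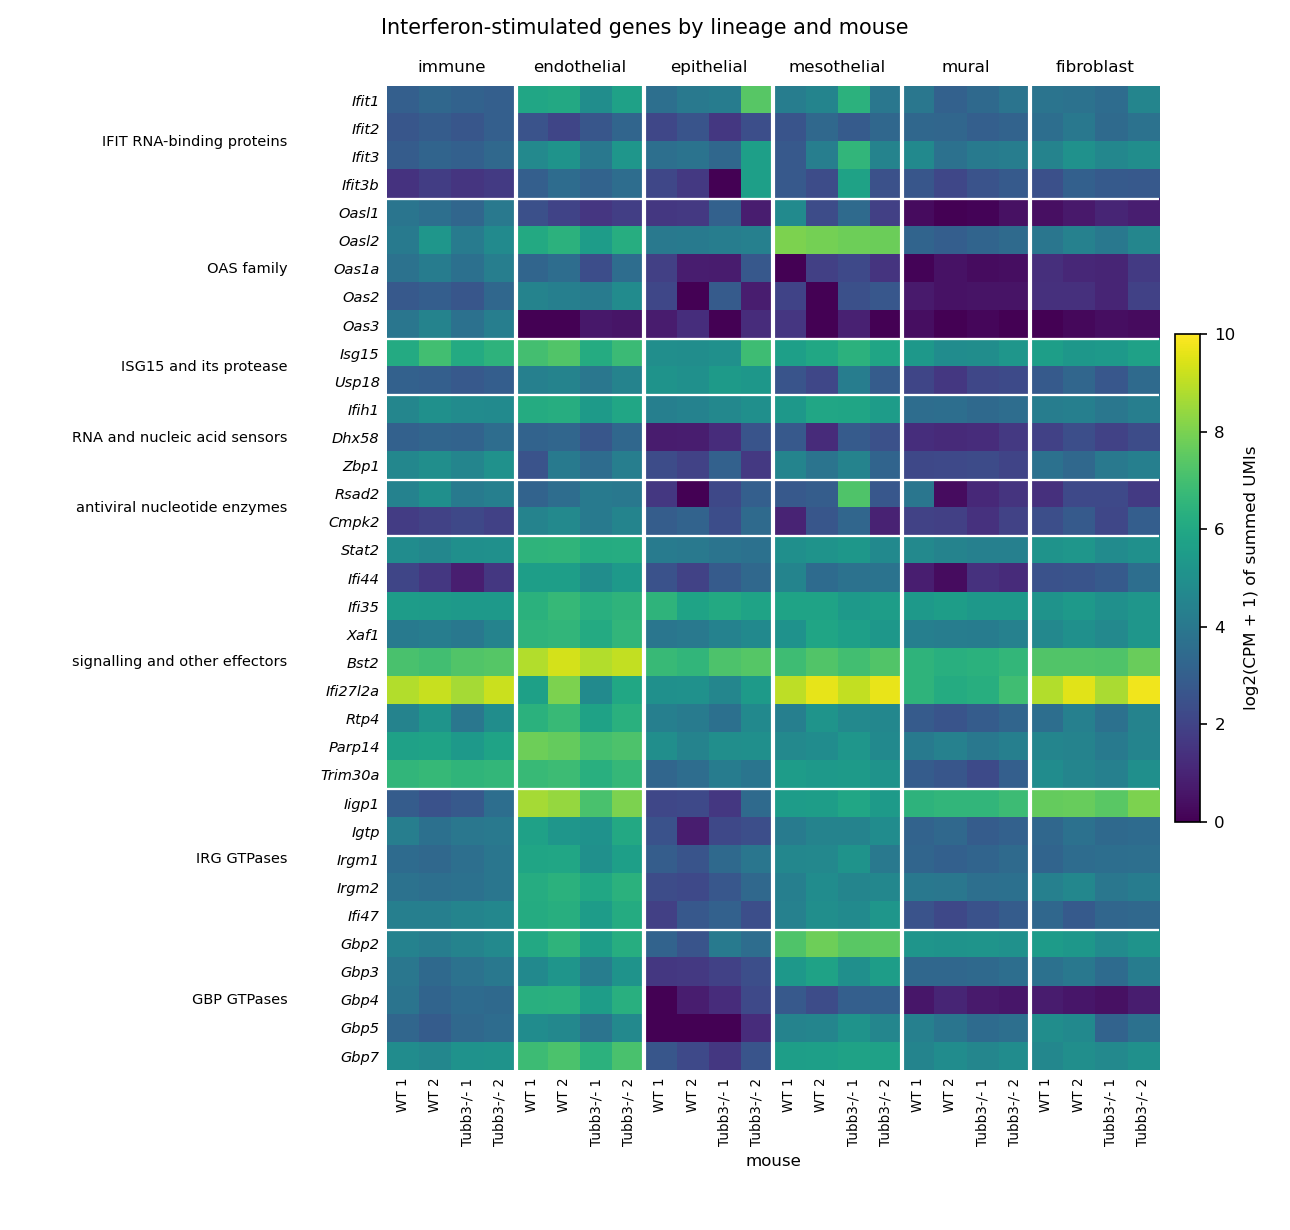
Level of the 35 interferon-stimulated genes as log2(CPM + 1), with genes in rows by role and the 4 mice of each of the 6 lineages in columns. Brighter cells are higher levels. The endothelial columns are the brightest for 19 rows by mean, with summed levels of 1810 to 3186 CPM, and the mural columns are darker, at 564 to 688 CPM.

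Each lineage was then compared with the mean of the other 5 by edgeR's quasi-likelihood test over 16350 genes, with the mouse as a term. Genes with an adjusted p-value (Benjamini-Hochberg, over all genes tested) under 0.05 were called. In endothelial cells 27 of the 35 genes were called higher, where 29.1% of all genes were, and 1 was called lower (31.8% of all genes). The median log2 difference of the list was 1.47, against -0.07 over all genes. Mural cells showed the opposite, with 27 called lower (27.3% of all genes) and 3 higher (32.3%) and a median of -1.11, against -0.00 over all genes. Epithelial cells had 20 lower (29.1%) and 3 higher (28.2%) and a median of -0.96. Mesothelial cells had 14 higher (20.1%) and 2 lower (21.2%) and a median of 0.62. Immune cells were divided, with 16 higher (37.8%) and 11 lower (37.3%) and a median of 0.19, and so were fibroblasts, with 6 higher (32.8%), 13 lower (25.6%) and a median of -0.14. In the whole-cell libraries alone 30 of the list were called higher and 1 lower in endothelial cells, and 1 higher and 24 lower in mural cells. The medians there were 1.62 and -1.28. The shares of all genes called in these libraries alone are not given here, so these counts describe the list alone.

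**Figure D2:**
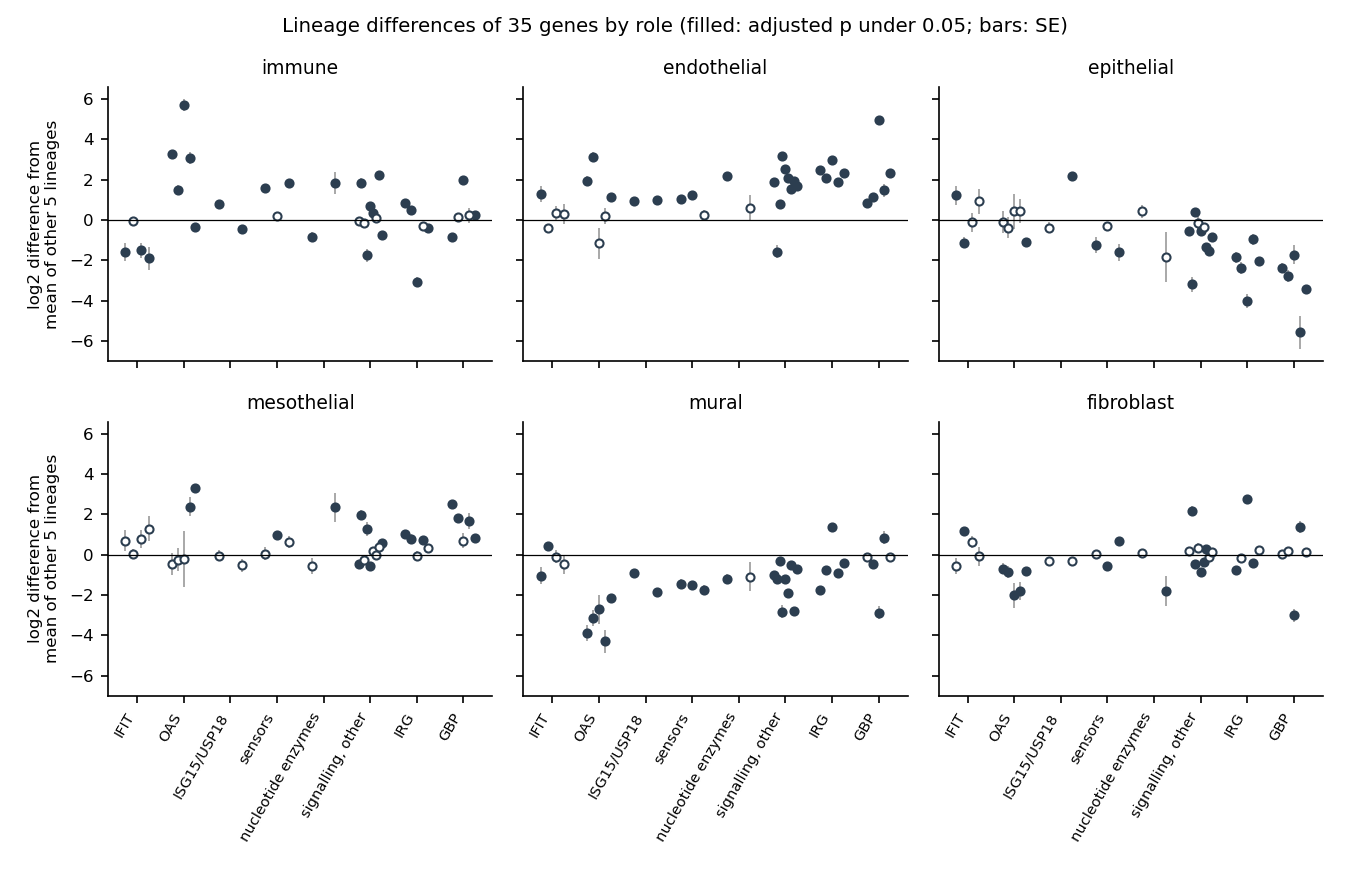
Log2 difference of each of the 35 genes between a lineage and the mean of the other 5, by role, with the SE as bars and filled points for an adjusted p-value under 0.05 in edgeR. Endothelial points lie mostly above 0 (27 called higher) and mural points mostly below it (27 called lower).

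The IFIT proteins bind viral RNAs that lack the caps of the host and block their translation. Of the 4 genes, 3 were called lower in immune cells and 1 was called higher in endothelial cells. Without the top cell of each sum 3 were called higher in endothelial cells, where their mean was then highest. In this setting 30 of the list were called higher there in place of 27, and its share of all genes is not given here. *Ifit1* had 58.9, 64.8, 28.8 and 51.8 CPM in endothelial cells and 7.04, 9.08, 7.96 and 7.24 in immune cells. Every endothelial value lay above every immune value, and the differences from the other lineages were 1.28 (SE 0.38, adjusted p = 0.00619) and -1.60 (SE 0.45, adjusted p = 0.00312) on the log2 scale. Fibroblasts had 13.5, 12.8, 10.6 and 22.7 CPM and were not called, and mural cells had 14.7, 7.54, 9.62 and 13.5 CPM and were called lower (-1.05, SE 0.42, adjusted p = 0.0376). *Ifit3* had 25.2, 34.4, 15.1 and 37.2 CPM in endothelial cells, 21.4, 32.3, 23.7 and 28.8 in fibroblasts, 25.7, 12.3, 16.3 and 17.9 in mural cells and 6.61, 8.36, 7.29 and 9.44 in immune cells. It was called lower in immune cells (-1.49, SE 0.37, adjusted p = 0.00108), and without the top cells also higher in fibroblasts (1.08, SE 0.13, adjusted p = 3.46e-07). *Ifit2* was the one gene of the list whose mean was highest in fibroblasts, with 11.1, 14.9, 9.91 and 12.7 CPM and a log2 difference of 1.16 (SE 0.14, adjusted p = 1.76e-07). *Ifit3* and *Ifit3b* are near-identical copies, so how their reads were divided is uncertain.

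In the 2 smallest lineages a single cell made up the IFIT level of a mouse. *Ifit1* in epithelial cells had 11.5, 15.3, 17.4 and 169 CPM, and 216 UMIs of it in *Tubb3*-/- 2 came from 1 cell, which held 336 of the 478 UMIs (70.3%) of *Ifit1*, *Ifit3*, *Isg15* and *Rsad2* in that sum. In mesothelial cells of *Tubb3*-/- 1, 1 cell held 418 of 467 such UMIs (89.5%), among them 167 of *Rsad2*, and in mural cells of WT 1, 1 cell held 423 of 1272 (33.3%), 177 of them *Rsad2*. *Ifit1* was called higher in epithelial cells (1.23, SE 0.47, adjusted p = 0.0297), but had 9.70, 8.13, 11.2 and 14.2 CPM and a difference of -0.53 (adjusted p = 0.102) without the top cell of each sum. The epithelial value of *Tubb3*-/- 2 and the mesothelial value of *Tubb3*-/- 1 thus rest on single cells for these genes.

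The OAS family, which makes or relates to the 2′-5′ oligoadenylate that activates RNase L, ranged in log2 difference from 5.68 (SE 0.29) for *Oas3* in immune cells to -4.30 (SE 0.56) for *Oasl1* in mural cells. In immune cells 4 of 5 were called higher and 1 lower, while all 5 were called lower both in mural cells and in fibroblasts. *Oas3* had 14.3, 21.3, 12.2 and 18.2 CPM in immune cells and at most 1.99 in any sum of another lineage. *Oas1a* had 12.8, 17.3, 11.9 and 18.2 CPM in immune cells, 8.54, 11.1, 4.17 and 10.98 in endothelial cells and 0.0737 to 0.390 in mural cells. The members of the family did not share a lineage, since *Oas2* was highest in endothelial cells (21.1, 19.1, 17.0 and 27.0 CPM, 3.12, SE 0.24, adjusted p = 1.25e-10). *Oasl2*, an OAS-like gene, was highest in mesothelial cells, with 257, 240, 223 and 218 CPM, against 66.5, 85.7, 44.6 and 73.6 in endothelial cells and 6.89 to 9.95 in mural cells. Its mesothelial difference was 3.32 (SE 0.13, adjusted p = 1.41e-15), and no other lineage reached a mesothelial value in any mouse.

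*Isg15*, a ubiquitin-like modifier, had 128, 155, 70.2 and 111 CPM in endothelial cells and 68.7, 125, 67.8 and 87.9 in immune cells. These ranges overlapped, and both lineages were called higher than the rest (0.94, SE 0.22, adjusted p = 0.000723, and 0.79, SE 0.21, adjusted p = 0.00203). Fibroblasts had 47.8, 38.2, 41.4 and 52.2 CPM, mesothelial cells 48.8, 61.6, 86.0 and 57.9, and mural cells 39.1, 28.1, 29.0 and 37.5, called lower (-0.94, SE 0.24, adjusted p = 0.00188). Epithelial cells had 29.9, 29.1, 31.3 and 119 CPM, the last with the cell described above. *Usp18*, the protease that removes ISG15 and also restrains the type I interferon receptor, differed from *Isg15* in being highest in epithelial cells, with 34.6, 31.3, 42.4 and 38.1 CPM (2.19, SE 0.20, adjusted p = 3.62e-09).

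Among the nucleic acid sensors, *Ifih1* (MDA5) was called higher in endothelial cells (1.25, SE 0.10) and mesothelial cells (0.95, SE 0.13), *Dhx58* (LGP2) in immune cells (1.60, SE 0.18) and endothelial cells (1.04, SE 0.21), and *Zbp1*, which starts necroptosis, in immune cells (1.83, SE 0.18) and fibroblasts (0.69, SE 0.19). All 3 were called lower in mural cells, where *Ifih1* had 9.74 to 11.3 CPM against 42.7 to 73.9 in endothelial cells.

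*Rsad2* (viperin) and *Cmpk2* lie side by side and make a chain-terminating nucleotide and its precursor, yet their lineages differed. *Rsad2* had 20.9, 30.6, 15.99 and 19.0 CPM in immune cells, 8.09, 10.8, 15.97 and 14.9 in endothelial cells and 1.63, 3.59, 3.63 and 2.27 in fibroblasts. It was called higher in immune cells (1.83, SE 0.55, adjusted p = 0.00496) and lower in fibroblasts (-1.79, SE 0.73, adjusted p = 0.0400). In mesothelial cells it had 5.97, 6.77, 150 and 5.51 CPM and was called higher (2.34, SE 0.72, adjusted p = 0.0124), but the difference was -0.07 (adjusted p = 0.960) without the top cells. In mural cells it had 14.2, 0.260, 1.21 and 1.83 CPM. *Cmpk2* had 21.1, 25.4, 16.1 and 21.6 CPM in endothelial cells and was called higher there (2.18, SE 0.19) and lower in immune cells (-0.85, SE 0.24, adjusted p = 0.00265), where it had 2.44 to 3.54 CPM.

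The remaining effectors and signalling proteins were an endothelial group, since 8 of 9 were called higher there, and all 9 were called lower in mural cells. *Bst2* (tetherin), which ties budding virus to the cell, had 464, 655, 457 and 545 CPM in endothelial cells (1.88, SE 0.09, adjusted p = 2.87e-14), 153, 157, 150 and 207 in fibroblasts, 140, 126, 154 and 163 in immune cells, 105, 93.9, 145 and 166 in epithelial cells and 89.7, 79.1, 83.7 and 97.0 in mural cells. *Parp14*, an ADP-ribosyltransferase, had 218, 198, 131 and 148 CPM in endothelial cells (2.50, SE 0.09, adjusted p = 1.16e-16), where no mouse was as low as any other sum. *Ifi44* (3.15, SE 0.21), *Rtp4* (2.10, SE 0.13), *Xaf1* (1.67, SE 0.10) and *Stat2*, the signal transducer of type I interferon (1.54, SE 0.09), were further genes called higher in endothelial cells. *Trim30a*, a TRIM protein of the mouse, was shared, with 94.5, 103, 93.1 and 96.9 CPM in immune cells (2.21, SE 0.10, adjusted p = 6.29e-15) and 106, 116, 77.5 and 101 in endothelial cells (1.93, SE 0.11). *Ifi35* had 88.9, 54.6, 66.8 and 55.4 CPM in epithelial cells, called higher at 0.37 (SE 0.09, adjusted p = 0.00191), and 77.8 to 104 in endothelial cells.

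*Ifi27l2a*, a small mitochondrial protein gene, was the exception of this group, as the one gene of the list called lower in endothelial cells. It had 515, 790, 536 and 821 CPM in mesothelial cells, 462, 739, 427 and 885 in fibroblasts and 464, 570, 401 and 581 in immune cells. All 3 lineages were called higher, at 1.96 (SE 0.24), 2.16 (SE 0.23) and 1.84 (SE 0.23). Mural cells had 91.0, 70.5, 75.4 and 122 CPM and endothelial cells 50.3, 263, 26.3 and 61.0 (-1.57, SE 0.31, adjusted p = 0.000138), and WT 2 stood apart among the latter. There 1 cell, not ISG-high by the rule given below, held 746 of 1045 UMIs (71.4%), and the level without it was 75.7 CPM.

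All 5 IRG GTPases and all 5 GBP GTPases were called higher in endothelial cells, and all 10 were called lower in epithelial cells. *Igtp* (2.07, SE 0.14), *Irgm1* (1.90, SE 0.15), *Irgm2* (2.32, SE 0.10) and *Ifi47* (2.48, SE 0.13) had their highest mean in endothelial cells, with at most 14.4 CPM in any epithelial sum. *Iigp1*, which loads onto parasite vacuoles, had a pattern of its own, with 405, 340, 140 and 257 CPM in endothelial cells, 196, 201, 171 and 263 in fibroblasts, 88.1, 93.5, 94.1 and 115 in mural cells and 4.69 to 11.2 in immune cells. It was called higher in the first 3 (2.97, SE 0.17, 2.77, SE 0.16, and 1.39, SE 0.18) and lower in immune cells (-3.08, SE 0.26, adjusted p = 3.75e-10), and it was the IRG gene called higher in mural cells. *Igtp* and *Irgm2* overlap on the same strand, so their counts are uncertain to that extent.

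*Gbp4* was the most endothelial of the list by fold, with 77.3, 80.2, 45.8 and 78.0 CPM there and at most 13.5 in any other sum (4.93, SE 0.15, adjusted p = 9.57e-18), though it overlaps *Gbp8* and *Gbp9*. *Gbp2*, which lyses pathogen vacuoles, was highest in mesothelial cells, with 149, 223, 172 and 179 CPM (2.52, SE 0.14, adjusted p = 1.53e-12), and had 63.8, 89.0, 46.3 and 73.2 in endothelial cells, 44.0, 38.6, 27.6 and 34.0 in fibroblasts and 17.6 to 25.4 in immune cells. *Gbp3* was also highest in mesothelial cells (1.83, SE 0.17) and *Gbp7* in endothelial cells (2.33, SE 0.10). *Gbp5*, which promotes inflammasome assembly, was called higher in endothelial cells (1.47, SE 0.31), fibroblasts (1.37, SE 0.29), mesothelial cells (1.67, SE 0.39) and mural cells (0.84, SE 0.33). It had 2 UMIs in all epithelial cells together, which are part of the mean that the others were compared with. Without the top cells its mean was 13.7 CPM in mural cells, below 24.1 in mesothelial cells, 22.2 in endothelial cells and 18.6 in fibroblasts.

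Within immune cells a class was marked by 1 gene each, *Csf1r* for monocytes or macrophages (1241 cells), *Cd3e* for T cells (909), *Cd79a* for B cells (432), *Retnlg* for neutrophils (284) and *Ncr1* for NK cells (199). The neutrophil-marker class had the highest mean for 19 of the 35 genes, the NK class for 6, the monocyte or macrophage class for 5, the T cell class for 4 and the B cell class for 1. Summed over the 35 genes, it had 2383, 5750, 2331 and 4934 CPM, against 1378 ± 149 in the monocyte or macrophage class, 1397 ± 239 in the T cell class, 948 ± 318 in the B cell class and 748 ± 133 in the NK class (SD, n = 4). *Isg15* had 525, 1458, 520 and 874 CPM in the neutrophil-marker class, and at most 73.7 in any sum of another class. *Rsad2* had 150, 329, 116 and 227 CPM there and at most 21.5 elsewhere. The class made up 6.51% of immune cells and 2.81% of their UMIs, but held 29.1% of the *Isg15* UMIs (1133 of 3896), 28.5% of those of *Rsad2*, 25.7% of *Oasl2*, 24.5% of *Rtp4* and 22.4% of *Oas3*. Of the 10 IRG and GBP GTPases, *Gbp2* (6.58%), *Irgm1* (4.02%) and *Gbp7* (3.41%) had more of their UMIs in this class than the 2.81% of all UMIs, and the other 7 had less. *Igtp* was highest in the T cell class (68.7, 33.5, 50.5 and 59.4 CPM) and *Gbp5* had 19.6, 13.4, 22.0 and 18.0 CPM in the T cell class and 11.1, 21.1, 8.13 and 33.9 in the NK class. In both, the level in the neutrophil-marker class was lower, at 13.9 CPM or less. These classes rest on single markers and few cells, and their values were not tested. The sums of the neutrophil-marker class held 257885 to 388846 UMIs, and the share of all genes highest in each class was not counted.

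**Figure D3:**
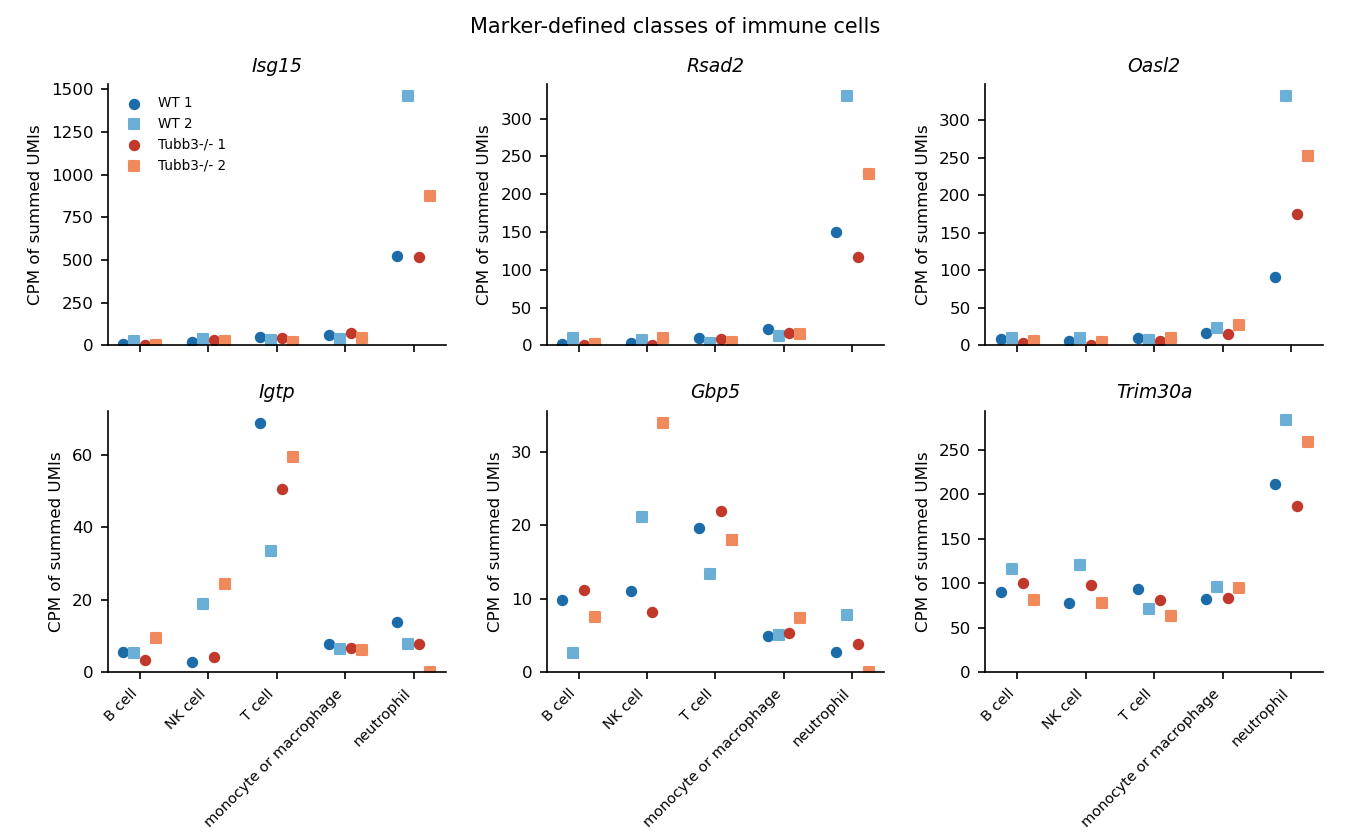
Level in CPM of 6 interferon-stimulated genes in 5 marker-defined classes of immune cells, with 1 point per mouse. *Isg15*, *Rsad2*, *Oasl2* and *Trim30a* are highest in the neutrophil-marker class, *Isg15* at 520 to 1458 CPM, whereas *Igtp* is highest in the T cell class.

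A list of 20 other genes of the pathway (ligands, receptors, kinases, transcription factors and inhibitors) gave the signal side, and 17 had enough counts to test by lineage. The immune lineage had 12 called higher (37.8% of all genes) and 2 lower (37.3%), and endothelial cells 8 (29.1%) and 3 (31.8%). Fibroblasts had 5 (32.8%) and 3 (25.6%) and mesothelial cells 3 (20.1%) and 7 (21.2%), so that their higher calls were near the share of all genes. Epithelial cells had 3 (28.2%) and 10 (29.1%) and mural cells 1 (32.3%) and 12 (27.3%). Interferon-γ (*Ifng*) was found almost wholly in immune cells, with 514 UMIs (13.5, 12.9, 10.5 and 8.34 CPM) and at most 6 UMIs in any other lineage. The type I ligand gene *Ifnb1* had 7 UMIs, all in immune cells, and the type III genes *Ifnl2* and *Ifnl3* had 0.

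The receptor genes differed in lineage, also between the subunits of the type I receptor. Both subunits of the interferon-γ receptor were called higher in immune cells (*Ifngr1* 2.03, SE 0.07, and *Ifngr2* 0.98, SE 0.08), and *Ifngr1* also in fibroblasts (1.07, SE 0.07) and endothelial cells (0.22, SE 0.08). Of the type I receptor, *Ifnar1* was called higher in immune cells (1.48, SE 0.08) and *Ifnar2* in mesothelial cells (1.20, SE 0.07), whose *Ifnar2* level was 310, 328, 289 and 285 CPM. The type III receptor *Ifnlr1* was an epithelial gene, with 17.6, 16.7, 20.9 and 15.1 CPM and at most 3.58 elsewhere (4.44, SE 0.33). Downstream of them, *Irf9* (1.46, SE 0.10) and *Irf1* (1.63, SE 0.12) were called higher in endothelial cells and *Irf7* (1.43, SE 0.14), *Jak2* (1.88, SE 0.08) and *Tyk2* (1.60, SE 0.09) in immune cells. The feedback inhibitor *Socs3* was called higher in endothelial cells (2.04, SE 0.12) and was the one pathway gene called higher in mural cells (1.09, SE 0.13), and *Socs1* was called higher in fibroblasts (1.24, SE 0.14).

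A cell was called ISG-high when it held UMIs of 3 or more of *Ifit1*, *Ifit3*, *Isg15* and *Rsad2*. Detection rises with depth, so each cell was thinned at random to 2000 UMIs and shallower cells were left out. The shares were low in every lineage. In endothelial cells they were 1.16% (4 of 345 cells), 1.55% (8 of 515), 0.876% (6 of 685) and 2.35% (15 of 639). Immune cells had 0.342% (4 of 1168), 1.70% (16 of 943), 0.430% (5 of 1163) and 1.34% (13 of 969). WT 2 and *Tubb3*-/- 2 were thus above WT 1 and *Tubb3*-/- 1, and the genotypes overlapped. Fibroblasts varied least, with 0.580% (5 of 862), 0.680% (6 of 882), 0.666% (7 of 1051) and 0.619% (6 of 970), and mural cells had 0.550% (7 of 1273), 0% (0 of 803, which allows a share of up to 0.374%), 0.387% (5 of 1292) and 0.541% (6 of 1109). Epithelial and mesothelial cells had 1 such cell each, in *Tubb3*-/- 2 (1 of 71, 1.41%, exact 95% interval 0.0357% to 7.60%) and *Tubb3*-/- 1 (1 of 72, 1.39%), and their sums with 0 allow shares of up to 3.19% to 4.29%. Of immune cells with the neutrophil marker, 1 of 77, 7 of 86, 1 of 59 and 6 of 59 were ISG-high.

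By mean share the order was endothelial (1.48% ± 0.64, SD, n = 4), immune (0.953% ± 0.671), fibroblast (0.636% ± 0.046), mural (0.369% ± 0.257), epithelial (0.352% ± 0.704) and mesothelial cells (0.347% ± 0.694). No pair of neighbours in this order passed the test, with adjusted p-values of 0.625 to 1 in exact two-sided sign-flip permutation tests over 4 mice, which cannot give less than 0.125 before adjustment. The difference of endothelial minus immune cells was 0.531 ± 0.506 percentage points (SD, n = 4), and the other differences were smaller than their SD over mice. Fibroblasts were above mural cells in 4 of 4 mice and endothelial above immune cells in 3 of 4. Without thinning the shares were 4.05%, 8.50%, 3.24% and 9.02% in endothelial cells, 2.77%, 3.60%, 3.04% and 5.95% in fibroblasts and 1.33%, 3.01%, 1.75% and 2.49% in immune cells, and there fibroblasts stood above immune cells in 4 of 4 mice. Mesothelial cells, last by mean share after thinning, had 1.37% (1 of 73 cells) to 6.94% (5 of 72) without it. Epithelial cells had 1.23% to 4.17% and mural cells 1.08% to 1.69%. By mean share mesothelial cells were next after endothelial cells both without thinning and at 5000 UMIs. At 1000 UMIs they were next after epithelial cells, so their place depended on the setting. Fibroblasts had medians of 14686.5 to 19221 UMIs per cell and immune cells 6644 to 7093.

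**Figure D4:**
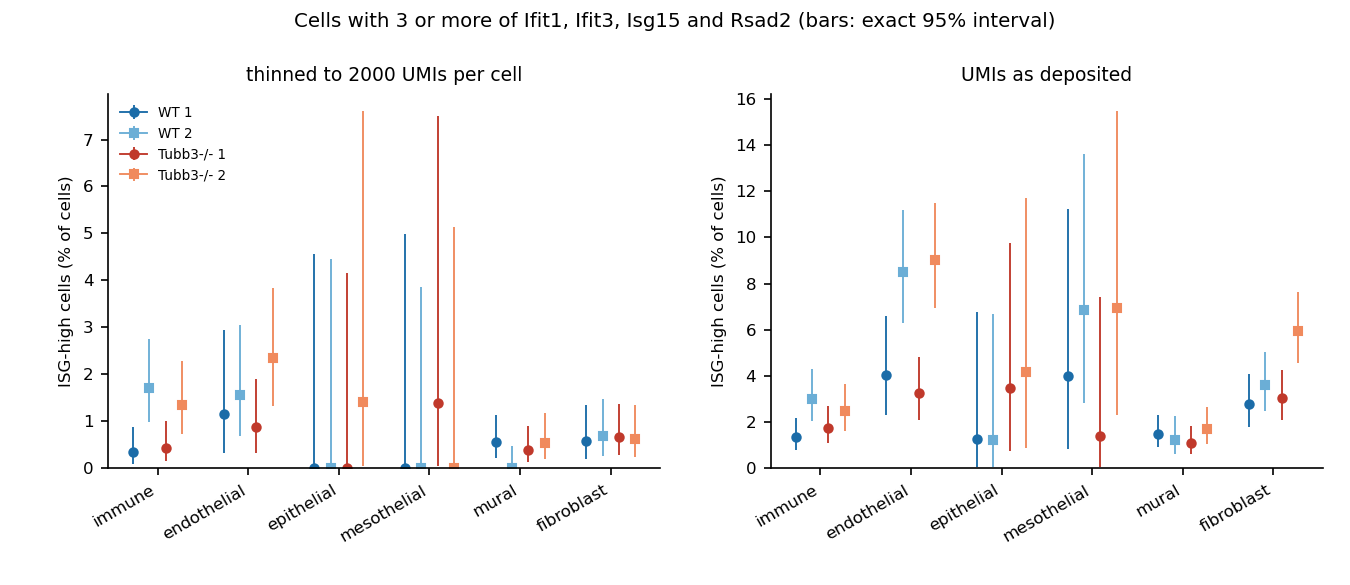
Share of ISG-high cells (UMIs of 3 or more of *Ifit1*, *Ifit3*, *Isg15* and *Rsad2*) per mouse and lineage in percent, after thinning to 2000 UMIs and as deposited, with exact 95% binomial intervals that cover counting error only. After thinning the endothelial shares lie at 0.876% to 2.35% and those of fibroblasts at 0.580% to 0.680%.

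The unthinned ISG-high cells were few, and by median held a larger part of the UMIs of the list than of all UMIs. Shares were taken over the 31 genes of the list that do not define the class. The median was 15.8% in mural cells, 14.8% in immune cells and 18.0% in fibroblasts. It was 20.9% in endothelial, 16.8% in mesothelial and 7.41% in epithelial cells. By role the mural medians ran from 9.91% (GBP genes) to 44.9% (*Usp18*). In mural cells 62 of 4518 cells were ISG-high. A median of 23.7% of the UMIs of the OAS genes and 13.1% of those of the IRG genes lay in them, against 1.53% of all UMIs. The median ratio of the level in ISG-high cells to that in the other cells (CPM of summed UMIs) was 19.9 for the OAS genes and 9.66 for the IRG genes. In immune cells (91 of 4365) the medians were 22.5% and 9.54%, and in fibroblasts (146 of 3786) 32.7% and 18.0%. In endothelial cells 143 of 2274 cells were ISG-high with 8.76% of all UMIs, and the ratios were 2.17 for the OAS genes and 2.76 for the IRG genes. Epithelial cells (8 of 320, 2.77% of all UMIs) had ratios of 6.85 and 2.81. Mesothelial cells (16 of 322, 5.17%) had 7.86 and 3.71. The 4 genes that define the class are left out of these shares, which are a description, since cells with more UMIs are more often ISG-high. The cells were also chosen by genes of the same list, so the ratios are no test of a shared response.

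Both genotypes had received bleomycin, so the comparison between them asks whether loss of *Tubb3* changed the level of these genes in a lineage. Of the list, 35 genes had enough counts to test in immune cells, 34 in endothelial cells and in fibroblasts, 30 in mural cells, 26 in mesothelial cells and 17 in epithelial cells. None was called in any lineage by edgeR. Of all genes 0% were called in 5 lineages and 0.231% (22 of 9527) in mesothelial cells. At an unadjusted p under 0.05 there were 3 of 35 in immune cells (8.23% of all genes), 11 of 34 in endothelial cells (13.5%), 2 of 17 in epithelial cells (4.27%), 1 of 26 in mesothelial cells (8.37%), 2 of 30 in mural cells (11.1%) and 6 of 34 in fibroblasts (18.2%). DESeq2 called 1 gene of the list, *Gbp5* in fibroblasts, and the share of all genes that it called is not given here. Genes of red blood cells (5, the haemoglobins and Alas2) were uneven between mice, with summed levels of 46.9, 31.5, 501 and 998 CPM in immune cells and 38.7, 4596, 1389 and 33.8 CPM in endothelial cells, and their part in these values was not tested.

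The endothelial lineage leaned towards lower levels in *Tubb3*-/- mice without a call. The median log2 difference, *Tubb3*-/- minus WT, was -0.33, against -0.01 over all genes, and 28 of 34 were negative. In 11 of them both *Tubb3*-/- mice were below both WT mice (23.8% of all genes), and in 2 above (21.1%). *Iigp1* gave -0.90 (SE 0.26, adjusted p = 0.219) and *Parp14* -0.57 (adjusted p = 0.125). The *Tubb3*-/- mice were not alike, as the summed level was 1810 CPM in *Tubb3*-/- 1 and 2582 in *Tubb3*-/- 2, and 2652 in WT 1. Without *Tubb3*-/- 2, which leaves 1 *Tubb3*-/- mouse, the log2 differences were -0.98 for *Isg15*, -1.075 for *Ifit1* and -1.38 for *Iigp1*. That of *Iigp1* ranged from -1.38 to -0.53 without single mice. Medians were 0.01 in immune cells, 0.06 in fibroblasts, -0.01 in mural cells and 0.03 in mesothelial cells. Both *Tubb3*-/- mice were above both WT mice for 7 genes in immune cells (19.0%), 4 in fibroblasts (24.5%), 6 in mural cells (22.2%) and 4 in mesothelial cells (18.9%), and below for 3 (21.1%), 4 (23.6%), 6 (18.7%) and 2 (18.6%). In epithelial cells the median was 0.43, with 11 of 17 above (21.6%) and 1 below (12.6%), a lineage of 72 to 87 cells per mouse with the single *Ifit1* cell in *Tubb3*-/- 2. The share of ISG-high cells differed by -0.134 percentage points in immune cells, 0.255 in endothelial cells, 0.704 in epithelial cells, 0.694 in mesothelial cells, 0.189 in mural cells and 0.0121 in fibroblasts, each with p = 1 in an exact two-sided permutation test over 2 against 2 mice, which cannot give less than 0.333.

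The difference between genotypes with the smallest p-value on the list was that of *Gbp5* in fibroblasts. *Gbp5* had 28.7 and 26.0 CPM in WT and 8.07 and 12.2 CPM in *Tubb3*-/- fibroblasts. The genotypes did not overlap, but with a log2 difference of -1.45 (SE 0.21, adjusted p = 0.0819) the gene was not called. In immune cells it had 8.78, 6.43, 9.43 and 10.4 CPM, in endothelial cells 28.3, 24.6, 13.2 and 24.9, in mesothelial cells 20.9, 22.3, 34.0 and 23.0 and in mural cells 19.5, 13.9, 10.2 and 11.7. A joint test of the 5 lineage-by-genotype terms called 0 genes of the list (6 of 17466 genes, 0.0344%). The contrast of immune cells with fibroblasts called 16 genes (0.0916%), among them *Gbp5*, whose difference between genotypes was higher in immune cells by 1.87 (SE 0.33, adjusted p = 0.0442) on the log2 scale. The contrasts of the other lineages with fibroblasts called 0 of the list, and 0.0172% of all genes for endothelial, 0.0229% for epithelial, 0.0515% for mesothelial and 0.00573% for mural cells.

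Of the pathway genes 15 to 17 were tested in each lineage, and 0 were called between genotypes within a lineage by edgeR. *Irf1*, the transcription factor that interferon-γ induces, was called in the contrast of immune cells with fibroblasts, at 1.14 (SE 0.21, adjusted p = 0.0442). It had 203, 178, 92.5 and 84.4 CPM in fibroblasts (-1.12, adjusted p = 0.0778), 466, 481, 246 and 284 in endothelial cells (-0.82, adjusted p = 0.0726), 229, 156, 104 and 91.2 in mural cells (-0.995, adjusted p = 0.237) 252, 177, 149 and 163 in mesothelial cells (-0.45, adjusted p = 0.599), 65.1, 56.1, 57.7 and 52.5 in epithelial cells and 63.2, 57.5, 60.5 and 61.5 in immune cells. In the first 4 lineages both *Tubb3*-/- mice were below both WT mice, and in epithelial and immune cells the genotypes overlapped, but no lineage was called on its own. Both contrasts were lost without the top cell of each sum (adjusted p = 0.0544 for *Gbp5* and 0.0531 for *Irf1*), without either *Tubb3*-/- mouse and in the whole-cell libraries alone, and that of *Irf1* also at 2 or more UMIs of the lineage marker (adjusted p = 0.0550). Immediate-early genes, which cells induce within minutes of a stimulus, were set beside these values. The summed level of 7 of them (*Fos*, *Jun*, *Junb*, *Egr1*, *Atf3*, *Ier2* and *Zfp36*, listed after the values had been seen) was 12202, 11881, 8197 and 8195 CPM in fibroblasts, 14677, 13071, 10886 and 10351 in mural cells and 3182, 3575, 3705 and 3768 in immune cells. Both *Tubb3*-/- mice were below both WT mice for 7 of 7 in fibroblasts (23.6% of all genes), 6 in mural (18.7%), 4 in endothelial (23.8%), 4 in epithelial (12.6%), 3 in mesothelial (18.6%) and 0 in immune cells (21.1%), and 0 of 7 were called in any lineage. Their part in the result was not tested.

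**Figure D5:**
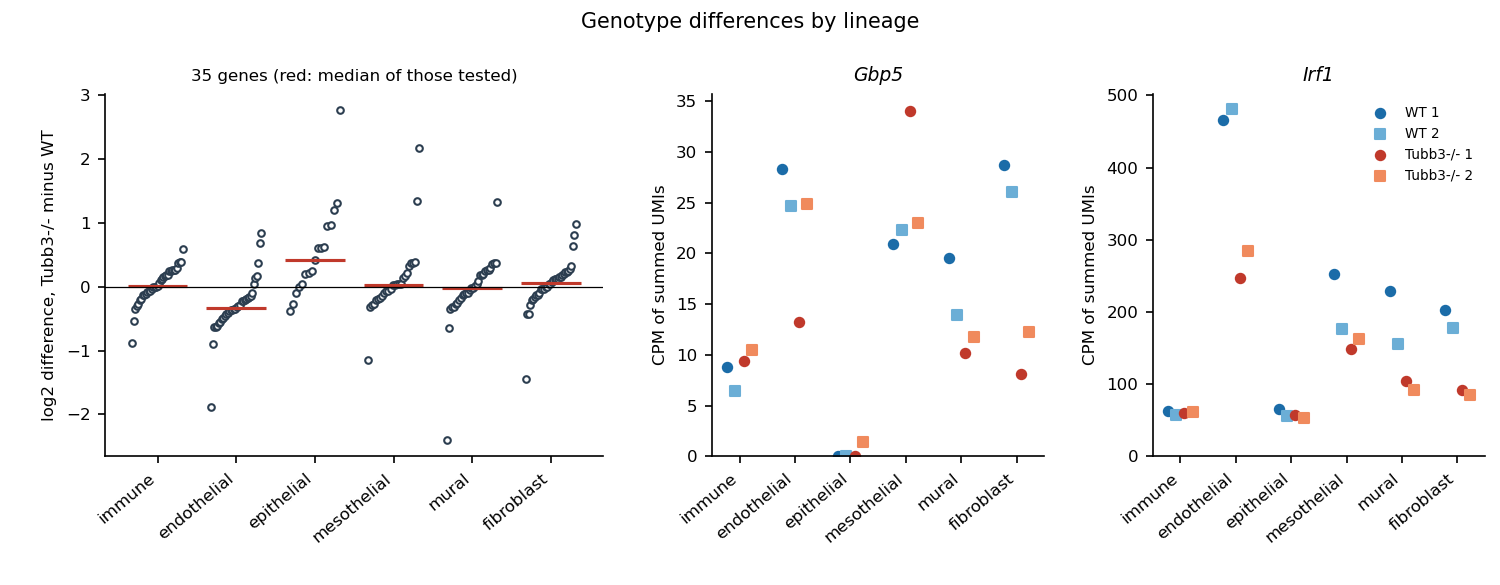
Log2 difference between *Tubb3*-/- and WT mice of each interferon-stimulated gene tested, by lineage with the median as a bar, and the level of *Gbp5* and *Irf1* in CPM per mouse. Medians lie between -0.33 in endothelial and 0.43 in epithelial cells, and *Gbp5* in fibroblasts is at 8.07 and 12.2 CPM in *Tubb3*-/- mice against 26.0 and 28.7 in WT mice.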

How the data were processed

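Counts are those the authors deposited, whole-number UMIs of each gene in each cell. The authors made them with Cell Ranger 7.1.0 on mm10, to which a Cre gene was added, and divided the cells among the mice by tag. Nothing had been normalized or corrected for background RNA. Each mouse is 1 replicate, and the cells of a mouse came in 2 libraries, whose UMIs were added. The whole-cell libraries had medians of 9277 to 12465 UMIs per cell and the mural cell-enriched ones 12435 to 16229. Of 32121 deposited cells, those with fewer than 200 genes (12), more than 7500 genes (275) or more than 15% mitochondrial UMIs (985) were left out. Doublets were scored per pool by Scrublet in scanpy 1.11.5. Its automatic threshold marked 2 cells of the whole-cell pool, so a score of 0.25, set after the scores had been seen, was used, and 768 cells were removed. The 2 pools shared 59 barcodes.

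The sums per mouse and lineage went into edgeR 4.0.16 (R 4.3.3), with genes filtered by filterByExpr, TMM factors, a quasi-likelihood F test and Benjamini-Hochberg adjustment over every gene tested (threshold 0.05). Lineages, and the difference of genotype effects between lineages, were fitted over the 24 sums with the mouse as a term, and genotypes within each lineage without covariates. Log2 differences are edgeR's and levels are CPM without normalization factors. A 3′ UMI is counted once per molecule, so that levels do not scale with gene length. The fits were tested on simulated data. Shares were compared with exact permutation tests over mice after 1 random thinning, and binomial intervals, exact (Clopper-Pearson), and the limits that a count of 0 allows (3 counts) cover counting error only. DESeq2 1.42.0, other normalization, filters, lineage rules, single libraries and left-out mice were alternatives.

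The genes and lists were chosen with earlier results of these data known. Values per mouse are given for *Ifit1*, *Ifit3*, *Isg15* and *Rsad2*, for the 3 genes of the list with the highest mean in each lineage, and for genes called between genotypes or in their differences between lineages. Other genes with values were chosen after these had been seen. Whether counting used strand is not given in the sources used here. *Oasl1*, *Usp18*, *Dhx58* and *Ifi35* overlap a gene on the other strand and *Rtp4* and *Ifi47* also overlap other genes, and their counts are uncertain to that extent.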

Additional observations from a re-analysis of the deposited data

Results flagged for a closer look

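In 47 groups of 4 mice, 10 had a value far from the other 3 by Dixon's test, which chance flags in about 1 in 20 groups. In epithelial cells *Tubb3*-/- 2 stood apart with 169 CPM of *Ifit1*, 48.9 of *Ifit3* and 119 of *Isg15* and an ISG-high share of 1.41%, and 1 cell gave 70.3% of the UMIs of the 4 genes there. In mesothelial cells *Tubb3*-/- 1 stood apart with 86.0 CPM of *Ifit1*, 95.8 of *Ifit3* and 150 of *Rsad2* and a share of 1.39%, with 89.5% of these UMIs in 1 cell. WT 1 had 14.2 CPM of *Rsad2* in mural cells, where 1 cell held 33.3% of the UMIs of the 4 genes, and *Tubb3*-/- 2 had 207 CPM of *Bst2* in fibroblasts.

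The genotype effect of *Gbp5* was higher in immune cells than in fibroblasts by 1.87 and that of *Irf1* by 1.14 on the log2 scale, each by the edgeR test of the difference itself (adjusted p = 0.0442). Neither difference was called without the top cell of each sum (adjusted p = 0.0544 and 0.0531), without either *Tubb3*-/- mouse or in the whole-cell libraries alone.

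Cells that matched several lineages entered no comparison. After thinning, their share of ISG-high cells was 0.706% in WT 1, 0.525% in WT 2, 0.562% in *Tubb3*-/- 1 and 0.526% in *Tubb3*-/- 2, in 2859 to 4094 cells per mouse.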

How the results depend on the processing

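With 2 mice per genotype and few epithelial and mesothelial cells, differences between genotypes were weakly resolved. Endothelial and mural cells kept their place, with 27 to 29 genes called by lineage in each when single mice were left out. The counts were 23 to 28 in immune, 20 to 24 in epithelial, 14 to 20 in mesothelial and 13 to 19 in fibroblast cells. The shares of all genes called by lineage under these alternatives are not given here. In the mural cell-enriched library alone, which was depleted of immune cells, 12 genes were called in immune cells and 9 in fibroblasts, against 27 and 19, but 29 of the list could be tested, among them 22 and 15 of those called before. There *Bst2* in immune cells was higher at 1.11 and *Ifi35* in epithelial cells lower at -0.27 (log2). *Ifit1* in epithelial cells was at -0.53 without the top cells and at -0.43 (without *Tubb3*-/- 2) to 1.65 without single mice. *Rsad2* in mesothelial cells was at -0.14 in the whole-cell library alone, -0.0722 without the top cells and -0.26 (without *Tubb3*-/- 1) to 2.997 without single mice.

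Counts of genes called between genotypes were 0, but without a filter on low counts they were 8 in endothelial, 3 in epithelial, 4 in mesothelial and 2 in mural cells, and 9 in the joint test of lineage-by-genotype terms. The shares of all genes called under this and the settings below are not given here, so these counts describe the list alone. The joint test called 1 gene (*Gbp5*) at 2 or more UMIs of the lineage marker. DESeq2 called 1 in fibroblasts. With the replicate block 2 were called in mesothelial cells (*Ifit1* and *Ifit3*) and 3 in fibroblasts (*Gbp5*, *Irgm2* and *Zbp1*), and 0 in the other 4 lineages. Whether mice with the same number share more than that number is not given in the sources used here. Correlations of their deviations over all genes tested were 0.07 to 0.29 in 2 pairs. Both mice numbered 2 were above both mice numbered 1 in the summed level of the list in immune cells (1254, 1457, 1174 and 1494 CPM). The same held in fibroblasts (1288, 1617, 1158 and 1902 CPM), but not in the other 4 lineages, and its cause was not tested. Without single mice the counts ranged from 0 to 2 in immune, 0 to 3 in endothelial, 0 to 1 in epithelial, 0 to 4 in mesothelial, 0 to 3 in mural and 0 to 2 in fibroblast cells, and from 0 to 1 in the joint test. The libraries that moved them were WT 1 in immune cells (*Isg15* and *Rsad2* lower without it), *Tubb3*-/- 2 in endothelial cells, *Tubb3*-/- 1 in epithelial cells, WT 1, WT 2 and *Tubb3*-/- 2 in mesothelial cells, WT 2 in mural cells, and WT 1 and WT 2 in fibroblasts.

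Differences in the share of ISG-high cells (percentage points, *Tubb3*-/- minus WT) changed sign or vanished under many settings, and the cause was not tested. In immune cells they were 0.0287 with all 4 genes required, 0 in the mural cell-enriched library alone and -0.811 to 0.543 without single mice. In endothelial cells they were -0.640 at 5000 UMIs, -0.146 without thinning, -1.76 with 2 of the 4 genes, -0.462 in the mural cell-enriched library alone and -0.481 to 0.991 without single mice. Epithelial cells gave 0 with all 4 genes, 0 in the whole-cell library alone and 0 to 1.41 without single mice. Mesothelial cells gave -0.331 at 5000 UMIs, -1.27 without thinning, -0.512 with 2 of the 4 genes, -0.934 when the leading marker had at least 3 times the next, 0 in the whole-cell library alone and 0 to 1.39 without single mice. Mural cells gave -0.07605 at 5000 UMIs, -0.311 with 2 of the 4 genes, 0 in the whole-cell library alone and -0.0859 to 0.464 without single mice. Fibroblasts gave -0.0662 at 2 or more UMIs of the marker, -0.138 in the whole-cell library alone and -0.0380 to 0.0623 without single mice. Endothelial minus immune cells was 0.531, but -0.0501 at 1000 UMIs and -0.114 with all 4 genes, and 0.373 to 0.756 without single mice. The settings added after the data were seen were the mural cell-enriched library alone for lineages, the leading marker rule, the top cells and the settings of the order.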
